A study of Mus musculus with 8 samples.

Results

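The comparison set 6 RNA-seq libraries of 4 mouse iPSC lines against 2 libraries of the mouse ESC line R1, and asked which genes lay on the same side of R1 in every iPSC library. The lines are secondary iPSCs: their donor mice were themselves made wholly from iPSCs, and every cell carries doxycycline-inducible transgenes of Oct4, Sox2, c-Myc and Klf4, which all 4 lines therefore share. Line 16-6 came from hematopoietic cells, 32 from adipocyte progenitors, S8 from epidermal cells and T2 from stomach lining cells of young adult animals. Of S8 and T2 there was 1 library each, and of R1, 16-6 and 32 there were 2. Per the study's methods, R1 and the iPSC lines were all grown on growth-arrested mouse embryonic fibroblasts in medium with serum and LIF, and doxycycline was withdrawn before the colonies were picked. R1 is a single ESC line, so its difference from the iPSC lines is that of 1 line and not of ESCs in general. The study describes the iPSC lines as sharing 1 genome and the same transgene insertions. A difference from R1 therefore cannot be told apart from one of genetic background. The labels give embryo as the tissue of every library, whereas the methods describe cultured cells. The members were the gene entries with an FPKM (fragments normalised to transcript length and library size) of at least 1 in at least 1 library and a locus of at least 200 bases, for which the lowest iPSC library lay above the higher R1 library or the highest iPSC library lay below the lower R1 library. All FPKM are given after division by 12725.7, one constant for all libraries, because the deposited values carry a large common factor, so that levels are relative. The members numbered 4228 of 13422 entries tested, from 22878 entries in all.

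Mouse ESCs and iPSCs grown in serum and LIF move between a naive state, which resembles the epiblast of the blastocyst, and a formative or primed state, which resembles the epiblast around implantation. Naive cells express Zfp42, Nr0b1 and Klf4, whereas formative cells raise Fgf5, Pou3f1 and Dnmt3b. LIF acts through its receptor Lifr, the co-receptor Il6st and Stat3 to hold the naive state, and FGF signalling drives cells out of it.

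All libraries expressed the defining pluripotency genes at a high level. Pou5f1 (Oct4) had an FPKM of 605 and 636 in R1 and 485 to 1020.2 (median 664) in the iPSC libraries, which overlapped. Sox2 had 263 and 263 in R1 and 157 to 284 (median 239.6) in the iPSC libraries, and Nanog had 177 and 174 against 80.8 to 327 (median 156). For both, R1 lay inside the range of the iPSC libraries. The values of Myc differed by 0.064 ± 0.031 on the log2 scale (SE, adjusted p = 0.13, limma). Klf4, whose product holds the naive state, had 126 and 130.2 in R1 and 53.3 to 111 (median 68.5) in the iPSC libraries, and lay lower in each of them. Lin28a, an RNA-binding protein, had 168 and 185 in R1 and 221 to 387 (median 292) in the iPSC libraries, and lay higher in each. Neither reached a 2-fold difference. Reads of the transgenes and of the endogenous genes cannot be told apart for Pou5f1, Sox2, Myc and Klf4.

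The fragments implied by the confidence limits summed to between 15480674 in the first R1 library and 16682395 in T2. Markers of fibroblasts, the feeder cells of the culture, summed over 39 genes to an FPKM of 4393 and 4702 in R1, 10748 and 10909 in 16-6, 1317 and 1337 in 32, 2385 in S8 and 2894 in T2. Line 16-6 thus lay above R1 and the other lines below it. Markers of macrophages, 28 genes of which 20 passed the filter on low values, summed to 142 and 152 in R1 and 34.4 to 44.9 in the iPSC libraries. In bulk samples such as these, fewer cells of a type and less RNA per cell cannot be told apart. The study gives S8 and T2 more reads and a lower share of unique alignments than the other lines, and the part of this in the results was not tested. The implied fragments were similar in all libraries and so did not follow these read numbers, which makes them a rough guide to depth. The libraries of R1, 16-6 and 32 are described as biological replicates, and where their sources were not separate the p-values measure only the spread between these libraries.

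Of the 13422 entries, 1936 lay higher in all 6 iPSC libraries than in both R1 libraries (14.4%) and 2292 lay lower (17.1%). Most of these differences were small, with a median of 0.51 on the log2 scale for the higher and 0.63 for the lower entries, and 938 higher and 770 lower entries differed by less than 0.5. Differences were tested with limma on log2(FPKM + 1), as the mean of the 4 line means against R1, with Benjamini-Hochberg adjustment over all entries tested. At an adjusted p below 0.05 without a minimum difference, 4035 entries were higher (30.1%) and 4791 were lower (35.7%), among them 1908 and 2241 of the entries on one side of R1. With a minimum of a 2-fold difference, 201 entries were higher (1.50%) and 609 were lower (4.54%). Of these, 180 (1.34%) and 488 (3.64%) also lay on one side of R1 in every library. Those 668 genes are the ones said below to have risen or fallen. For 32 of the 180 and 133 of the 488, the nearest libraries of the 2 groups were themselves at least 2-fold apart.

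**Figure D1:**
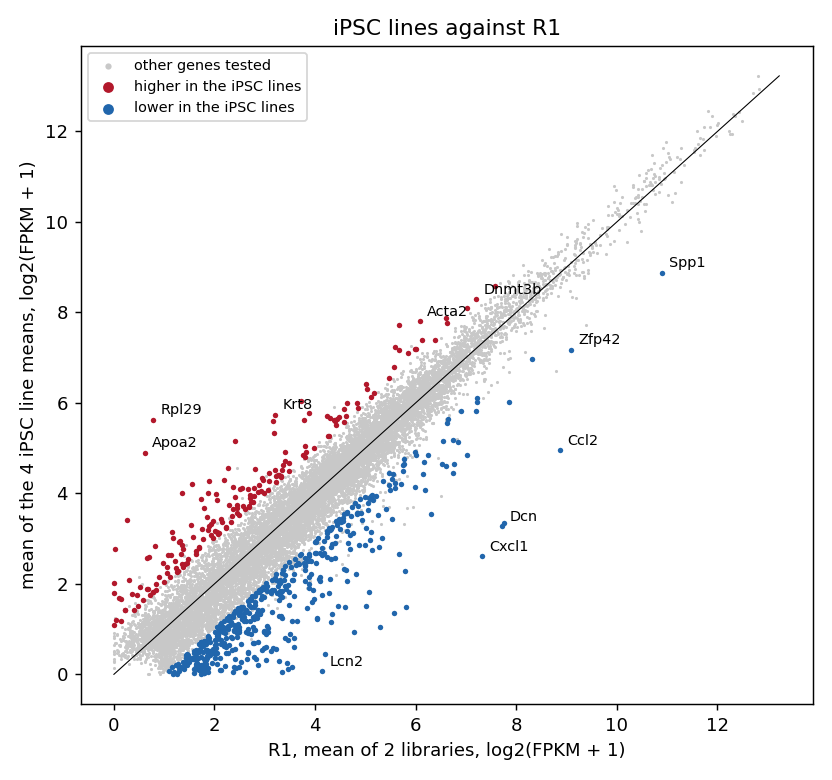
Mean log2(FPKM + 1) of the 4 iPSC line means (vertical axis) against the mean of the 2 R1 libraries (horizontal axis) for 13422 gene entries, with the 180 genes that rose in red, the 488 that fell in blue and the line of equal levels in black. The blue points reach farther from the line than the red ones apart from Rpl29 and Apoa2, and many lie near 0 in the iPSC lines.

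The spread behind this test comes from the pairs of libraries of R1, 16-6 and 32, and it leaves out the variation from line to line. With each line as 1 value, which takes R1 to vary as the iPSC lines do, 1 gene was higher (0.00745%) and 18 were lower (0.134%) at an adjusted p below 0.05 and a 2-fold difference. These 19 genes were all among the 668. In that fit 113 of the 180 and 345 of the 488 had an unadjusted p below 0.05 (limma). Over all entries tested, 195 higher and 604 lower ones did. The 180 and 488 were selected from these same values, so their share is no separate support. The iPSC lines share a genome, so the spread between them does not cover variation between genotypes. An exact permutation test of 6 against 2 libraries, with the smaller tail doubled for 2 sides, cannot give less than p = 0.071 for a single gene. With all iPSC libraries as 1 group, 70 genes rose and 243 fell. The split between the directions depended on the scaling, since under quantile normalization 286 genes rose and 378 fell, and 2376 entries lay above R1 and 1872 below it.

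The gene with the largest rise was Rpl29, which encodes a protein of the large ribosomal subunit (chr9:106331870-106333898 in mm9). Its FPKM was 0.588 and 0.865 in R1, 38 and 47.1 in 16-6, 93.4 and 76.8 in 32, 44.7 in S8 and 34.6 in T2. Every iPSC library exceeded both R1 libraries, and the log2 difference was 4.85 ± 0.13 (SE, adjusted p = 3.5e-05). Rpl29 was the gene that was higher also with each line as 1 value (adjusted p = 0.038, limma). No gene was higher in that fit with a pseudocount of 0.1 or with a filter at an FPKM of at least 5. The reference annotation of this genome build names 4 further loci as copies of Rpl29, so that with unique alignments its level is uncertain. Of 88 cytosolic ribosomal protein genes tested, Rpl29 was the one that rose, none fell, and 14 lay above R1 (15.9%), against 14.4% of all entries.

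Apoa2, an apolipoprotein of high-density lipoproteins (chr1:173155185-173156510), had an FPKM of 0.443 and 0.639 in R1 and 17 to 43.9 (median 32.1) in the iPSC libraries, a log2 difference of 4.28 ± 0.069 (adjusted p = 1.5e-05). The neighbouring genes Olig1 and Olig2 on chromosome 16 encode transcription factors of the oligodendrocyte lineage. Olig1 rose from 0.163 and 0.228 to 6.02 to 17.5 (median 8.6), and Olig2 from 0.0207 and 0 to 4.23 to 8.66 (median 4.76), by 3.16 ± 0.05 and 2.76 ± 0.064 on the log2 scale. Both were close to 0 in R1 and expressed at a low level in all 4 iPSC lines. Car4, a membrane-bound carbonic anhydrase, had 4 and 4.63 in R1 and 22.5 to 51.2 (median 24) in the iPSC libraries (log2 difference 2.74 ± 0.063). Car4 was highest in S8 and T2. Ubd, Gpr27 and 2410017I17Rik rose and were listed at 0 in both R1 libraries, and these 3 were named after their values were seen.

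**Figure D2:**
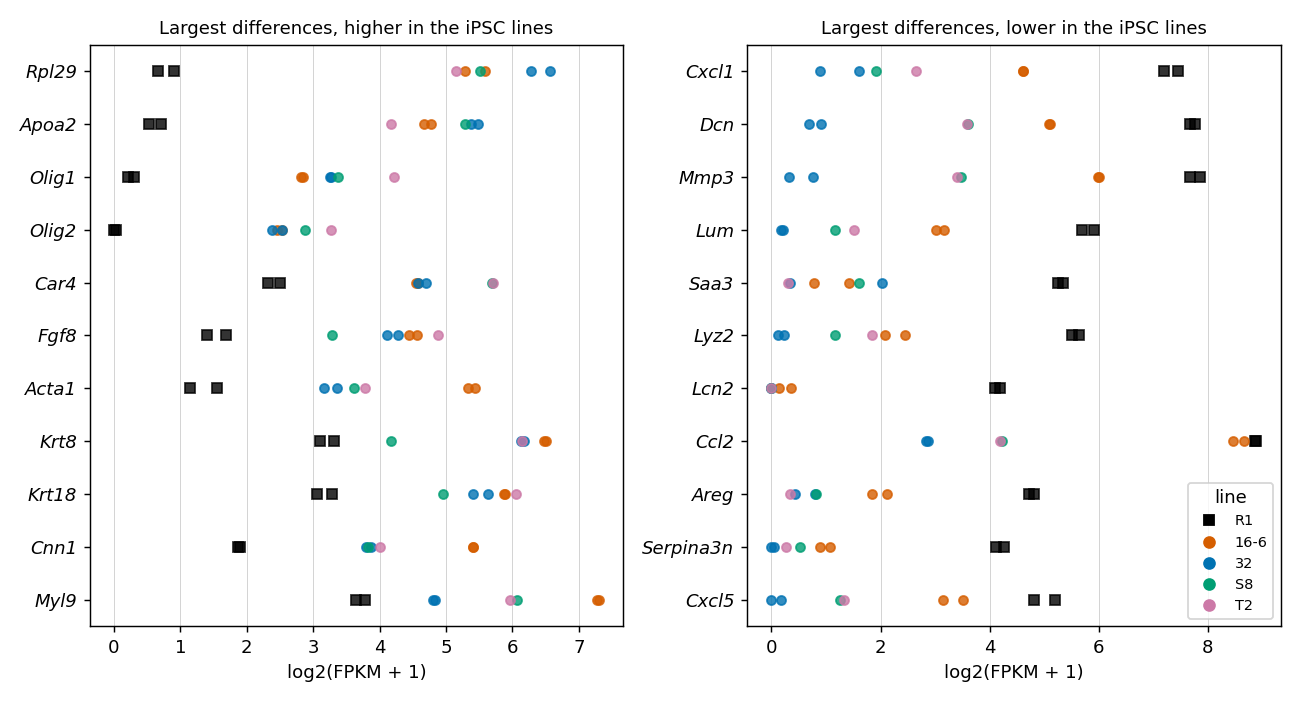
log2(FPKM + 1) in each of the 8 libraries for the genes with the largest differences among those that rose (left) and among those that fell (right), with R1 as black squares and the iPSC lines as coloured circles. The squares and circles do not overlap for any of these genes, which is how the genes were chosen, and for the genes that fell the circles of 16-6 lie nearest to R1 except for 1 gene.

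Lists of genes with a shared role were described next, by the number of their members above and below R1. Some genes stand in more than 1 list. Over all entries tested, 14.4% lay above R1, 17.1% lay below it, 1.34% rose and 3.64% fell. The counts of every list below are to be read beside these shares. The lists of epithelial, contractile, inflammatory, macrophage and hypoxia genes were written after the values were seen, so that their counts and the names drawn from them describe the genes and support nothing further.

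The genes of the formative and primed epiblast lay mostly above R1. Of 22 tested, 13 lay above R1 (59.1%, against 14.4% of all entries), 11 rose and none fell, and the median log2 difference was 0.92, against -0.03 over all entries. The growth factors of this list are secreted signals of the epiblast. Fgf8 had an FPKM of 2.24 and 1.65 in R1 and 20.8 and 22.6 in 16-6, 16.2 and 18.4 in 32, 8.74 in S8 and 28.3 in T2, and differed by 2.66 ± 0.10 on the log2 scale (adjusted p = 7.1e-05). Fgf5, the usual marker of the formative state, had 6.56 and 6.94 in R1 and 13.2 to 28.3 (median 19.4) in the iPSC libraries, and Wnt8a had 0.868 and 0.648 and 2.91 to 9.05 (median 7.29). The 3 genes rose by 2.66, 1.39 and 2.03, and Fgf8 and Wnt8a were lowest in S8 among the iPSC lines.

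The transcription factors of the list behaved less evenly across lines. Pou3f1 (Oct6), a POU factor of the primed epiblast, had an FPKM of 7.38 and 8.72 in R1 and 17.1 and 16 in 16-6, 13.8 and 13.5 in 32, 125 in S8 and 82.3 in T2 (log2 difference 2.17 ± 0.068). Sox3 had 2.21 and 2.47 in R1 and 5.68 and 5.53 in 16-6, 5.26 and 6.05 in 32, 34.1 in S8 and 29.1 in T2 (2.14 ± 0.067). For both, 16-6 and 32 lay roughly 2-fold above R1 and S8 and T2 well above that. Sall2 rose from 3.94 and 4.43 to 7.27 to 18.3 (median 9.26) and was also highest in S8 and T2. Otx2, a factor that starts the exit from the naive state, went the other way, with 62.1 and 65.3 in R1 and 20.1 to 50.1 (median 35.8) in the iPSC libraries, a difference of -0.81 that did not reach 2-fold. Among the enzymes, Dnmt3b, a de novo DNA methyltransferase, had 137 and 156 in R1 and 176 to 502 (median 221) in the iPSC libraries (1.09 ± 0.056), and the kinase Pim2 had 47.1 and 52.1 and 144 to 299 (median 167) (2.07 ± 0.046). With S8 and T2 left out, the median of the list was 0.46.

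Genes of epithelial junctions and polarity, which hold cells in a sheet, also lay mostly above R1. Of 37 tested, 23 lay above R1 (62.2%, against 14.4% of all entries). Of the list, 13 rose (1.34% of all entries did) and none fell, with a median log2 difference of 0.68. Krt8 and Krt18, the keratin pair of simple epithelia, had the largest rises. Krt8 had an FPKM of 8.89 and 7.55 in R1 and 87.7 and 89.7 in 16-6, 68.8 and 71.2 in 32, 17 in S8 and 70.0 in T2 (log2 difference 2.54 ± 0.063, adjusted p = 3.3e-05). Krt18 had 7.34 and 8.69 in R1 and 30.1 to 65.4 (median 53) in the iPSC libraries (2.43 ± 0.088). S8 was the lowest iPSC library for both. The tight junction claudins Cldn6, Cldn7 and Cldn3 rose by 1.51, 1.85 and 1.15, and Cldn6 was the most abundant of them, at 47.6 and 51.8 in R1 and 114 to 188 (median 121) in the iPSC libraries. The polarity genes Crb3 and Pard6b rose by 1.04 and 1.14, and the epithelial transcription factor Ovol2 by 1.30. Cdh1 (E-cadherin) and Epcam lay above R1 in every iPSC library, but by less than 2-fold. Cdh1 had 155 and 151 in R1 and 159 to 322 (median 218) in the iPSC libraries, and Epcam 109 and 109 and 139 to 262 (median 163). Tjp3 was the member that lay below R1, with a difference of -0.51. Zeb1, a repressor of epithelial genes that was named after its values were seen, fell by 1.39 on the log2 scale, from 12.7 and 13 to 2.52 to 10.6 (median 3.66). The transcription factors Snai2, Twist1 and Twist2 of the fibroblast list lay above R1 in 16-6 and below it in 32, S8 and T2.

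Genes of contractile actin filaments lay above R1 in part. Of 28 tested, 11 lay above R1 (39.3%), 9 rose and none fell, and the median was 0.45. Acta1, the skeletal muscle actin, had an FPKM of 1.93 and 1.21 in R1 and 39.2 and 42.4 in 16-6, 9.22 and 7.94 in 32, 11.3 in S8 and 12.7 in T2 (log2 difference 2.66 ± 0.13, adjusted p = 0.00013). The cardiac actin Actc1 had 1.27 and 1.21 in R1 and 6.18 to 7.87 (median 6.86) in the iPSC libraries, nearly equal in all 4 lines. Cnn1 (calponin) and the myosin light chain Myl9 rose by 2.38 ± 0.039 and 2.32 ± 0.044, and Myl9 had 11.5 and 12.7 in R1 and 157 and 154 in 16-6, 27.5 and 26.9 in 32, 66.1 in S8 and 61.3 in T2. Acta2 (smooth muscle actin) and Tagln (transgelin) were the most abundant. Acta2 had 68.7 and 65.5 in R1 and 966 and 968 in 16-6, 77.6 and 78 in 32, 156 in S8 and 209.8 in T2, so that 32 lay just above R1 and 16-6 far above it. Tagln had 47.6 and 46.6 in R1 and 85.9 to 487 (median 114) in the iPSC libraries (1.66 ± 0.045). Acta2, Tagln and Cnn1 are also fibroblast markers, of which 16-6 held the highest summed level, and the part of fibroblasts in these values was not tested. In 32, Acta1, Cnn1 and Tagln lay above R1 by 1.91, 1.95 and 1.03 on the log2 scale and Acta2 by 0.21, whereas Actg2, Cald1, Myh11 and Tpm2 of the same list lay below R1 in 32 and above it in 16-6. Actg2, for example, had 6.65 and 7.74 in R1 and 104 and 107 in 16-6, 4.88 and 5.16 in 32, 13.9 in S8 and 18.8 in T2.

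Genes of contractile actin are known targets of serum response factor, which binds the CArG box, and Srf itself lay above R1 in every iPSC library, by 0.54. The promoter windows of RefSeq (250 bases before to 50 after the gene start, GRCm38.p6, so that these coordinates differ from those of mm9 above) were searched on both strands for the CArG box. Of the 9 genes that rose, 8 had a window and 4 of them (Acta1, Myl9, Actc1 and Cnn2) held a match, while 1.57% of all 27025 promoters and 1.37% of the promoters of tested genes did. Acta1, Myl9 and Actc1 are shown for their differing evenness across lines, with the box in capitals.

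Acta1, chr8:123894726-123895025, minus strand: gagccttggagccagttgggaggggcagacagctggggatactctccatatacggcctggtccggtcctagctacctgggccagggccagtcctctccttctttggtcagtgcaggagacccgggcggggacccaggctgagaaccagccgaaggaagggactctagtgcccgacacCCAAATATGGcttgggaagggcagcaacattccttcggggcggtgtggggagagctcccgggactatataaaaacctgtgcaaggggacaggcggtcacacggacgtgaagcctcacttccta
Myl9, chr2:156775214-156775513, plus strand: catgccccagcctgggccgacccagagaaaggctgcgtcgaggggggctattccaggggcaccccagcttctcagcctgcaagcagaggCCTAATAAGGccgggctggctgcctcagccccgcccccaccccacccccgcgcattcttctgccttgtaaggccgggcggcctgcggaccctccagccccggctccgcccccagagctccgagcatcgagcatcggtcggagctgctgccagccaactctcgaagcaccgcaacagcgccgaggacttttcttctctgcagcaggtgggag
Actc1, chr2:114052826-114053125, minus strand: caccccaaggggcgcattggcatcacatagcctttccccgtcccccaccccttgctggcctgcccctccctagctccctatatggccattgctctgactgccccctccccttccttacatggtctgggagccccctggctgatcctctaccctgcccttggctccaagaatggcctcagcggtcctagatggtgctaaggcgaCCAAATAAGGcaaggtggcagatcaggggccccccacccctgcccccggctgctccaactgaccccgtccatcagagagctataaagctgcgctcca

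A match is a run of letters and not a shown binding site. The list holds known targets of serum response factor, and members that did not rise were not counted apart. The shares therefore test nothing about this factor in the lines.

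Cholesterol synthesis genes lay above R1 in small, even steps. Of 23 tested, 15 lay above R1 (65.2%), none lay below it, and the median log2 difference was 0.42, but Fdps (farnesyl diphosphate synthase) alone rose by the 2-fold rule, from 100.3 and 95.4 to 134 to 316 (median 222) (1.13 ± 0.037). Sqle (squalene epoxidase) had 36.2 and 38.5 in R1 and 53 to 97.1 (median 63.9) in the iPSC libraries. Its groups did not overlap, and the log2 difference was 0.99 ± 0.04, just short of 2-fold. Line 16-6 had the smallest median difference of the list, 0.20, and the other lines lay between 0.38 and 0.54.

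The remaining abundant genes that rose were Snhg3, a host gene of small nucleolar RNAs, at 204 and 175 in R1 and 294 to 473 (median 379.9) in the iPSC libraries, the RNA-binding protein Hnrnpa0, at 96 and 96.9 and 136 to 406 (median 158), and Mtrnr2l, at 127 and 131 and 163 to 394 (median 247). Hnrnpa0 was raised mainly in S8 and T2, by 2.06 and 1.83, against 0.58 in 16-6 and 0.65 in 32. Of 10 neural genes tested, 4 lay above R1 (40%, against 14.4% of all entries) and 1 lay below it (10%, against 17.1%). Among them, Sox11 and Nes rose by 1.30 and 1.19 and Neurod1 fell by 1.24. Of 11 genes of the primitive streak and mesendoderm, 2 lay above R1 (18.2%), Fgf8 alone rose and none fell.

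**Figure D3:**
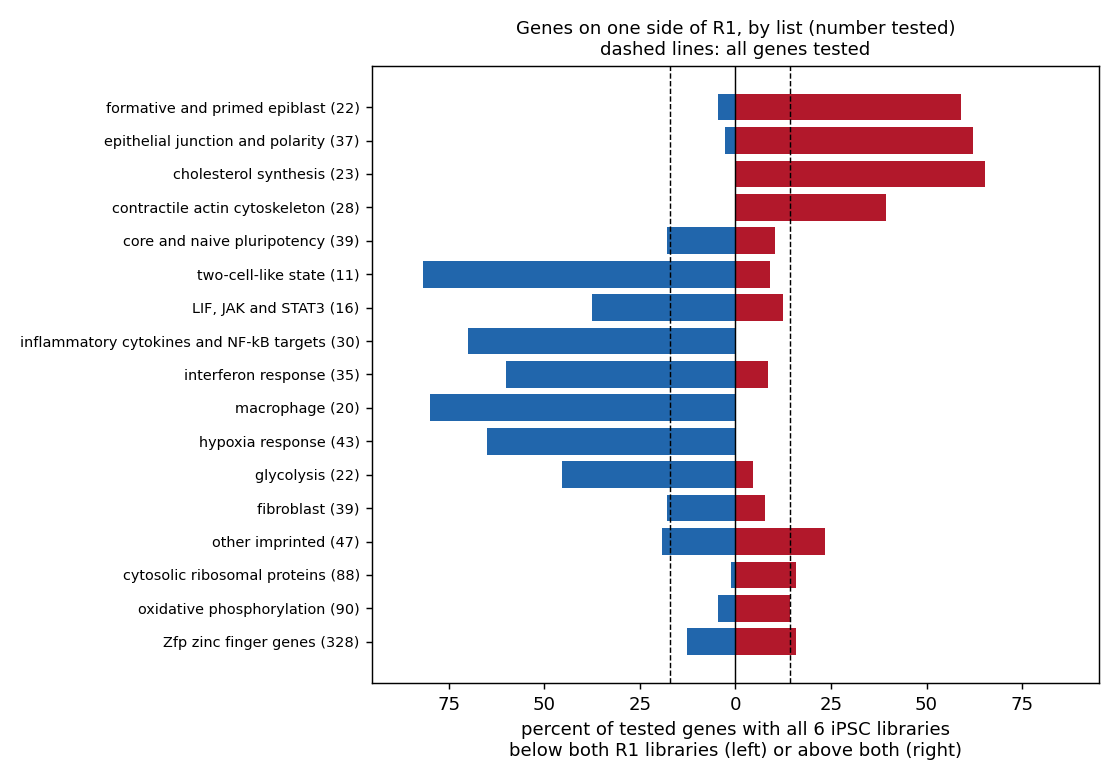
Percent of the tested genes of each list for which all 6 iPSC libraries lay above both R1 libraries (red, to the right) or below both (blue, to the left), with the number tested in parentheses and dashed lines at the shares of all entries, 14.4% and 17.1%. The formative, epithelial and cholesterol lists reach 59.1% to 65.2% above R1, and the macrophage, two-cell-like, inflammatory, hypoxia and interferon lists reach 60% to 81.8% below it.

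Among the genes of core and naive pluripotency, 7 of 39 lay below R1 (17.9%, against 17.1% of all entries), 4 lay above it, 5 fell and none rose. The 4 above R1 were Dppa3, Lin28a, Gbx2 and Lin28b, by 0.94, 0.81, 0.58 and 0.48 on the log2 scale. The other 28, among them Nanog, Esrrb, Tbx3 and Prdm14, did not lie on one side of R1. Of these, Esrrb, Tbx3 and Tcl1 were at least 2-fold lower by the test, with log2 differences of -1.09, -1.36 and -1.22. They lay below R1 in 16-6, S8 and T2 but not in every library of 32. The share of the list below R1 was thus near the background. The 5 of 39 that fell exceed the 3.64% of all entries that did, and they are given for themselves. Zfp42 (Rex1), a zinc finger marker of the naive state, had an FPKM of 541 and 544 in R1 and 141 and 144 in 16-6, 258 and 277 in 32, 119 in S8 and 92.9 in T2, a log2 difference of -1.91 ± 0.038 (adjusted p = 2.2e-05). Spp1 (osteopontin), a secreted phosphoprotein, had 1784 and 2053 in R1 and 279 to 1281 (median 376) in the iPSC libraries (-2.02 ± 0.062). Nr0b1 (Dax1), a nuclear receptor of the naive network, had 149 and 143 in R1 and 29.3 to 124 (median 56.7) in the iPSC libraries. Tet1, which oxidises methylated cytosine, had 147 and 147 and 36.1 to 122 (median 73.7). The adhesion molecule Jam2 fell by 1.23, and Nr0b1, Tet1 and Jam2 all lay closest to R1 in 32. Of the LIF pathway, the receptor Lifr fell from 22 and 22.8 to 7.82 to 17.6 (median 8.8) and the cytokine Lif from 18 and 19.4 to 1.5 to 11 (median 2.49), while the co-receptor Il6st and Stat3 lay below R1 in every iPSC library, with differences of -0.76 and -0.41. Ier3, an early response gene of the same list, fell from 124 and 135 to 15.9 to 71.2 (median 22.6). Socs2 and Pim1, known targets of Stat3, lay above R1 by 0.16 and 0.58.

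Genes of the two-cell-like state, which a small share of pluripotent cells enters at any time, lay mostly below R1. All of those tested were low, at no more than 4.07, except Eif1a, which had 144 and 157 in R1 and 123 to 172 (median 133) in the iPSC libraries and overlapped. Of 11 tested, 9 lay below R1 (81.8%) and 3 fell (Zscan4a, Zscan4e and Gm5662), with a median log2 difference of -0.88. Zscan4a had an FPKM of 4.04 and 4.07 in R1 and 0.145 to 1.25 (median 0.818) in the iPSC libraries. The 6 tested Zscan4 genes are near-identical copies, so that their reads are hard to assign and they are not separate evidence. On chromosome 12, the neighbouring entries Gm8300, Gm2022, Gm5662 and Gm5039 all fell, by 1.05, 1.25, 1.28 and 1.61 on the log2 scale, from levels of at most 3.71 in R1.

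Secreted inflammatory factors lay mostly below R1. Of 30 inflammatory cytokines and targets of NF-kB tested, 21 lay below R1 (70%, against 17.1%), none lay above it, 17 fell, and the median log2 difference was -1.60. The other 9 lay on neither side. Among them, Csf1, Ccl7, Vcam1 and Ptgs2 lay above R1 in 16-6 and below it in 32, S8 and T2. Csf1, for example, had 40.6 and 43.5 in R1 and 186 and 182 in 16-6. Cxcl1, a chemokine that attracts neutrophils (chr5:91320271-91322141 in mm9), had an FPKM of 145 and 174 in R1 and 23.5 and 23.6 in 16-6, 0.855 and 2.06 in 32, 2.79 in S8 and 5.31 in T2, and fell by 4.71 on the log2 scale (SE 0.20, adjusted p = 0.0001). Every iPSC library lay far below both R1 libraries. Ccl2, which attracts monocytes, had 464 and 472 in R1 and 351 and 403 in 16-6, 6.08 and 6.33 in 32, 17.8 in S8 and 17.2 in T2, so that its fall of 3.92 rested on 32, S8 and T2, with 16-6 close to R1.

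The acute phase genes Lcn2 (lipocalin 2), Saa3 (serum amyloid A3) and Serpina3n fell to near 0. Lcn2 had an FPKM of 17.2 and 16.2 in R1, 0.288 and 0.0968 in 16-6 and was listed at 0 in 32, S8 and T2. Saa3 had 36.9 and 39.7 in R1 and 0.232 to 3.06 (median 1.21) in the iPSC libraries, and Serpina3n 18.2 and 16.4 and 0 to 1.12 (median 0.317). Lcn2 and Serpina3n were also lower with each line as 1 value (adjusted p = 0.0046 and 0.041, limma). No gene was lower in that fit with a pseudocount of 0.1 or with a filter at an FPKM of at least 5. The interleukins Il6, Il11, Il1b and Il1a fell by 3.0, 2.4, 1.78 and 1.63, and Il6 was the highest of them in R1, at 20.5 and 18.2. The NF-kB inhibitors Nfkbia and Tnfaip3 are feedback targets of the pathway. Tnfaip3 fell by 1.05, and Nfkbia lay below R1 with a difference of -0.55, short of 2-fold. The EGF receptor ligands Areg and Ereg fell as well. Areg had 25.5 and 27.1 in R1 and 0.259 to 3.36 (median 0.746) in the iPSC libraries (-3.83 ± 0.13), and Ereg 53.4 and 54.4 and 27.7 and 26.7 in 16-6, 0.92 and 0.698 in 32, 2.01 in S8 and 2.65 in T2 (-3.50 ± 0.061). Their receptor Egfr fell by 1.45, but with 16-6 at 9.38 and 10.1 against 10.1 and 11.1 in R1.

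The chemokine genes that fell lie side by side. On chromosome 5 the neighbouring entries Pf4, Cxcl3, Cxcl1 and Cxcl2 all fell (chr5:91201461-91334964 in mm9), and on chromosome 11 Ccl5, Ccl9, Ccl6, Ccl3, Ccl4 and Gm11428 (chr11:83339281-83519771). Pf4 had an FPKM of 10.9 and 9.34 in R1 and at most 0.498 in the iPSC libraries, and Ccl3 10.5 and 10.7 and at most 0.41. The entries of a run are paralogs in part, and their joint fall is not independent from gene to gene.

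The promoter windows of the inflammatory genes were searched for the kappaB site, a motif of 10 bases bound by NF-kB. Of the 17 genes that fell, 13 had a window and 6 of them (Cxcl1, Il6, Cxcl3, Cxcl2, Lif and Tnfaip3) held a match on either strand. Of all promoters 8.18% did, and of the promoters of tested genes 10.5%. The list was written to hold targets of NF-kB, and members that did not fall were not counted apart. The shares therefore test nothing about NF-kB in the lines. The windows of the neighbouring Cxcl1, Cxcl2 and Cxcl3 are shown because their genes fell together. In each, the capitals mark overlapping matches on both strands, which can be one site.

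Cxcl1, chr5:90890995-90891294, plus strand: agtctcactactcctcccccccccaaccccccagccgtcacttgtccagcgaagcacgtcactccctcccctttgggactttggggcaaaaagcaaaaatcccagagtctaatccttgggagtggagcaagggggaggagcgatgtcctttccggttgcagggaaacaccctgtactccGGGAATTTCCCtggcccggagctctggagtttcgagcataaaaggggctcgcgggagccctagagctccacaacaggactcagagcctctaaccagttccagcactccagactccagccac
Cxcl2, chr5:90903649-90903948, plus strand: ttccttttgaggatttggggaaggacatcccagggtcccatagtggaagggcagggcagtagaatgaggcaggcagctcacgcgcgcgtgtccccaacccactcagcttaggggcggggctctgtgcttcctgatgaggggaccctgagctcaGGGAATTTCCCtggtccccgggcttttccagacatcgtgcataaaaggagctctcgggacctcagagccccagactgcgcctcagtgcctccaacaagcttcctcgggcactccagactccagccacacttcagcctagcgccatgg
Cxcl3, chr5:90785851-90786150, plus strand: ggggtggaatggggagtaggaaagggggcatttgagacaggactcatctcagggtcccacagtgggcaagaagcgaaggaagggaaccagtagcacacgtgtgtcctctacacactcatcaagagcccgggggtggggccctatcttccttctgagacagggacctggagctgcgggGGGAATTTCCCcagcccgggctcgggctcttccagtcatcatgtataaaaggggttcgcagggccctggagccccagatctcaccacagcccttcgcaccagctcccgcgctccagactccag

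The same letters stood in capitals in all 3 windows, ahead of the gene start.

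Macrophage genes lay mostly below R1. Of 20 tested, 16 lay below R1 (80%), none lay above it and 11 fell, with a median log2 difference of -1.19. Lyz2 (lysozyme) had an FPKM of 44.5 and 48.9 in R1 and 3.25 and 4.45 in 16-6, 0.167 and 0.0831 in 32, 1.26 in S8 and 2.61 in T2 (-4.21 ± 0.11, adjusted p = 3.6e-05). Emr1, which encodes the macrophage antigen F4/80, had 3.22 and 3.46 in R1 and 0 to 0.134 (median 0.0781) in the iPSC libraries, and the lipopolysaccharide co-receptor Cd14 had 7.17 and 8.76 and 0.0833 to 0.843 (median 0.568). Tyrobp, an adaptor of myeloid receptors, had 4.17 and 2.7 in R1 and was listed at 0 in 5 of 6 iPSC libraries. No iPSC library overlapped with R1 for these genes, and the summed macrophage level of 16-6, 39.4 and 39, lay inside the range of the other lines. The inflammatory list differed from this in 16-6, where its summed FPKM was 979.9 and 1038, against 1167 and 1244 in R1 and 215 to 224 in 32, S8 and T2. Its median log2 difference was -0.52 in 16-6 and -1.64 to -2.18 in the other lines. The part of macrophages in the inflammatory genes was not tested. Of the 18 genes that were lower with each line as 1 value, Marco, Ccl3, Ccl9, Ccl6, Emr1, Pf4, Cd36, Clec4d, Irg1 and Stfa3 are known from myeloid cells. They were named after their values were seen. How many genes passed that fit depended on the pseudocount and on the filter on low values, as given in the closing section.

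Interferon response genes lay mostly below R1. Of 35 tested, 21 lay below R1 (60%), 3 lay above it, 13 fell and 1 (Gbp2) rose, with a median of -0.72. The transcription factor Irf7 had 2.78 and 3.32 in R1 and 0.0343 to 0.785 (median 0.217) in the iPSC libraries, and fell with a log2 difference of -1.66 ± 0.076. The RNA sensor Ddx58 (RIG-I) had 28.1 and 27.2 in R1 and 7.28 to 17.1 (median 12.9) in the iPSC libraries. Among the effectors, Isg15 had 7.83 and 10.3 and 1.91 to 3.45 (median 2.79), and Ifit1 3.52 and 3.45 and 0.0728 to 1.18 (median 0.641). The GTPase gene Gbp2 went the other way, from 4.09 and 4.92 to 7.13 to 20.5 (median 11.7), and Irf1 lay above R1 by 0.98. The median difference of the list was similar in the 4 lines, from -0.64 in S8 to -0.93 in T2.

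Genes of the hypoxia response, which HIF factors switch on at low oxygen, lay mostly below R1. Of 43 tested, 28 lay below R1 (65.1%), none lay above it and 16 fell, with a median of -0.74. The other 15 lay on neither side. Among them, Vegfa, Adm and Lox lay above R1 in 16-6 and below it in 32, S8 and T2, and Kdm3a lay above R1 in 32. Vegfa, for example, had 51.8 and 50.5 in R1 and 62.7 and 62.1 in 16-6. Fam162a, a mitochondrial protein and the most abundant gene of the list to fall, had an FPKM of 306 and 327 in R1 and 139 and 135 in 16-6, 91.8 and 93.5 in 32, 139.8 in S8 and 134 in T2 (-1.34 ± 0.037, adjusted p = 3.9e-05). Ero1l, an oxidase of the endoplasmic reticulum, had 95.2 and 88.6 in R1 and 31.5 to 40.8 (median 34) in the iPSC libraries, and Ndrg1 34.2 and 32.6 and 5.84 to 9.5 (median 8.34). All 3 fell by at least 2-fold in each line. Ndufa4l2, a mitochondrial protein induced by HIF, had the largest fall of the list, 3.02 on the log2 scale, from 49.9 and 49.8 to 1.35 to 16.1 (median 2.8). The collagen hydroxylases P4ha1 and P4ha2 fell by 1.41 and 1.14, with 16-6 close to R1, at 38 and 38.8 for P4ha1 against 43.8 and 43.6. The glycolytic enzymes Pfkp, Aldoc and Hk1 fell by 1.56, 1.29 and 1.06. Of 22 glycolysis genes, 10 lay below R1 (45.5%), while Eno3, the muscle enolase, rose by 1.43. The glucose transporter Slc2a3 had 368 and 392 in R1 and 185 to 293 (median 263) in the iPSC libraries, a difference of -0.63.

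The letters ACGTG, the core of the hypoxia response element, were searched on both strands in the promoter windows. Of the 16 genes that fell, 12 had a window and 7 held a match, against 19.7% of all promoters and 26.0% of the promoters of tested genes. The list holds genes that HIF factors switch on, and members that did not fall were not counted apart. The shares therefore test nothing about HIF in the lines. The window of Fam162a is shown with its match in capitals, since it was the most abundant of them.

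Fam162a, chr16:36071512-36071811, minus strand: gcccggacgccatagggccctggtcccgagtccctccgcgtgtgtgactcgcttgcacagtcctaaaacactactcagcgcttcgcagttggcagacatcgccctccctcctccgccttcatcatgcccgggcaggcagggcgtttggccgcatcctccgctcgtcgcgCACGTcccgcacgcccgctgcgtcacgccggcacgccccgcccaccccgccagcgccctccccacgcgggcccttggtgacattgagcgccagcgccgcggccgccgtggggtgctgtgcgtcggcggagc

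**Figure D4:**
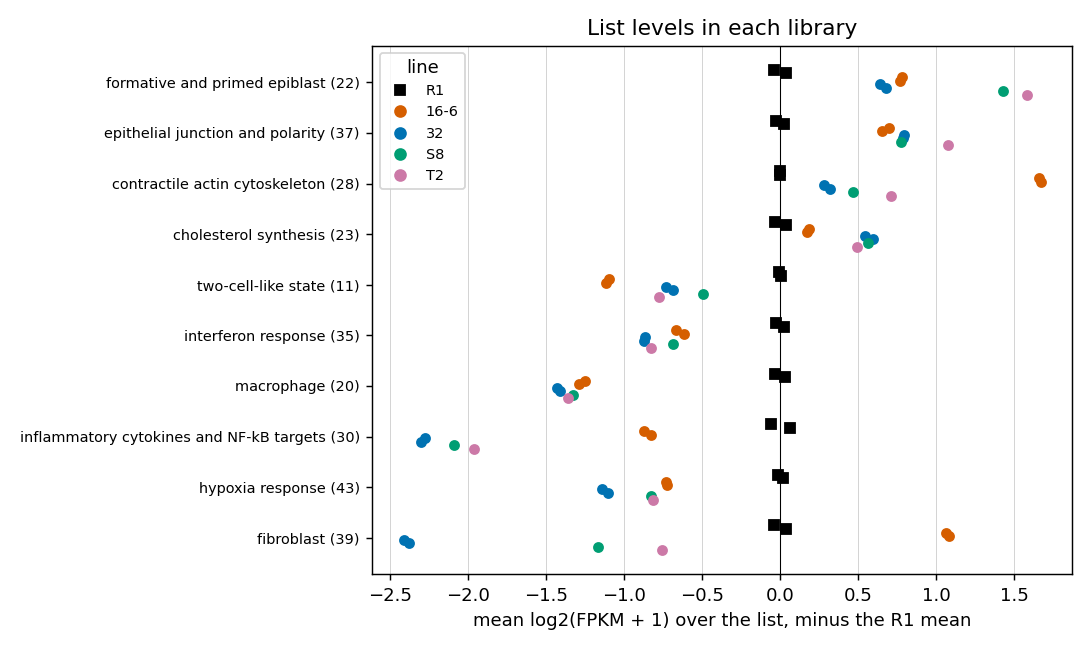
Mean log2(FPKM + 1) over the tested genes of 10 lists in each library, minus the mean of the R1 libraries (horizontal axis), with R1 as black squares and the iPSC lines as coloured circles. The circles of all 4 lines lie to the left of R1 for the macrophage, interferon, hypoxia, inflammatory and two-cell-like lists, and for fibroblast genes 16-6 lies to the right and 32, S8 and T2 to the left.

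Genes of the matrix were among the largest falls, although the share of the fibroblast list below R1 was near the background. Of 39 fibroblast genes, 7 lay below R1 (17.9%, near the 17.1% of all entries). All 7 fell and 3 rose, the contractile genes above, against 3.64% and 1.34% of all entries. The median log2 difference of the list was 1.25 in 16-6, -2.48 in 32, -0.96 in S8 and -0.66 in T2. Dcn and Lum, neighbouring genes of small leucine-rich proteoglycans of the matrix, had the largest falls of the list. Dcn had an FPKM of 217 and 204 in R1 and 32.9 and 33.3 in 16-6, 0.605 and 0.89 in 32, 11.1 in S8 and 11 in T2 (-4.45 ± 0.072, adjusted p = 1.5e-05), and Lum 50.6 and 59.2 in R1 and 0.132 to 7.91 (median 1.55) in the iPSC libraries (-4.31 ± 0.082). With Epyc, which was listed at 0 in all 6 iPSC libraries, they form a run on chromosome 10. The matrix metalloproteinases Mmp3, Mmp12 and Mmp13, neighbours on chromosome 9, also fell together. Mmp3 had 202 and 230 in R1 and 63.2 and 62.7 in 16-6, 0.707 and 0.255 in 32, 10.1 in S8 and 9.51 in T2. The collagens Col3a1, Col6a1 and Col6a2 and the gelatinase Mmp2 fell too, but 16-6 lay close to R1 for each. Col3a1 had 103 and 109 in R1 and 93.2 and 90.2 in 16-6, 2.49 and 2.61 in 32, 18.5 in S8 and 34.7 in T2. Col6a3 was at least 2-fold lower by the test but did not lie on one side of R1, with 37.7 and 41.8 in R1 and 63.7 and 66.7 in 16-6. The other collagens of the list overlapped with R1 and were higher in 16-6, such as Col1a1, with 174 and 180.1 in R1 and 599.8 and 566 in 16-6, 29.1 and 27.8 in 32, 167 in S8 and 243 in T2. The same held for Col1a2, Col5a1 and Col5a2. The part of fibroblasts in the genes that fell was not tested. With both libraries of 16-6 left out, an alternative chosen after seeing the data, 253 genes rose and 851 fell, and 168 of the 180 and 464 of the 488 genes were among them.

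Imprinted genes lay on both sides of R1. Of 47 tested outside the Dlk1-Dio3 domain, 11 lay above R1 (23.4%, against 14.4% of all entries), 9 lay below it (17.1% of all entries did), 5 fell and none rose. The share below R1 was near the background, and the genes that fell are given for themselves. H19 and Igf2, neighbours of opposite imprint, fell from 228 and 233 to 22.1 to 180.1 (median 64.4) and from 110.5 and 116 to 13.4 to 96 (median 32.9). In both, 16-6 lay near R1 and 32 lowest. Airn fell from 3.43 and 3.12 to 0.19 to 2.44 (median 0.927), and since it lies antisense to Igf2r and the strand of the counting is not given, its reads cannot be told from those of that gene. Dlk1 fell from 14.6 and 14.9 to 0.609 to 5.47 (median 2.17), and of 7 tested genes of its domain it was the one that lay on one side of R1. H19, Igf2, Dlk1 and Dcn are also expressed in embryonic fibroblasts, whose part in their values was not tested.

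The Y-linked genes Eif2s3y and Ddx3y fell. Eif2s3y had an FPKM of 94.5 and 88.6 in R1 and 23 and 28.3 in 16-6, 8.25 and 8.32 in 32, 46.9 in S8 and 32 in T2, and Ddx3y 23.8 and 24.7 in R1 and 1.04 to 13.3 (median 8.29) in the iPSC libraries. Uty lay below R1 with a difference of -0.84. The levels of Xist, 27.3 and 21.6 in R1 and 5.25 to 23.2 (median 8.35) in the iPSC libraries, overlapped, and its reads cannot be told from those of its antisense gene Tsix without strand. Apart from chromosome Y, with 5 entries and a median log2 difference of -0.84, the chromosome medians lay between -0.11 on chromosome 9 and 0.04 on chromosome 19. The share of tested entries that fell ranged from 2.37% on chromosome 8 to 5.47% on chromosome 6 among the chromosomes other than Y.

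Runs of at least 3 neighbouring tested entries that moved together numbered 9, and in all of them the genes fell. Besides those named above, Triml1, Triml2 and Zfp42 on chromosome 8 (chr8:44215161-44392363) fell as neighbours. Triml2 had an FPKM of 95.7 and 97.3 in R1 and 16.9 to 40.0 (median 21.6) in the iPSC libraries and Triml1 45 and 38.2 and 7.86 to 21.6 (median 11), and 32 lay nearest to R1 for all 3 genes. The C-type lectins Clec4a1, Clec4n and Clec4d on chromosome 6, at most 4.73 in R1, fell to near 0. The other runs were Slc13a5, Xaf1 and Tekt1 on chromosome 11, by 1.07, 1.51 and 1.41, and Gprc5a, Hebp1 and 8430419L09Rik on chromosome 6, by 1.08, 1.45 and 1.02.

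The lines did not contribute evenly. Of the 180 genes that rose, 92 were at least 2-fold above R1 in 16-6, 87 in 32, 147 in S8 and 170 in T2, and 40 were so in every line. Of the 488 that fell, 278 were at least 2-fold below R1 in 16-6, 388 in 32, 431 in S8 and 461 in T2, and 174 in every line. For 285 of the 488, 16-6 was the line with the smallest difference. Since the genes were selected on the mean of the 4 lines, these counts describe them and test nothing. A contrast of 16-6 with 32, which does not involve R1, called 149 of the 488 genes at least 2-fold higher in 16-6 and 10 lower, at an adjusted p below 0.05. Over all entries tested, it called 1251 higher and 135 lower.

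**Figure D5:**
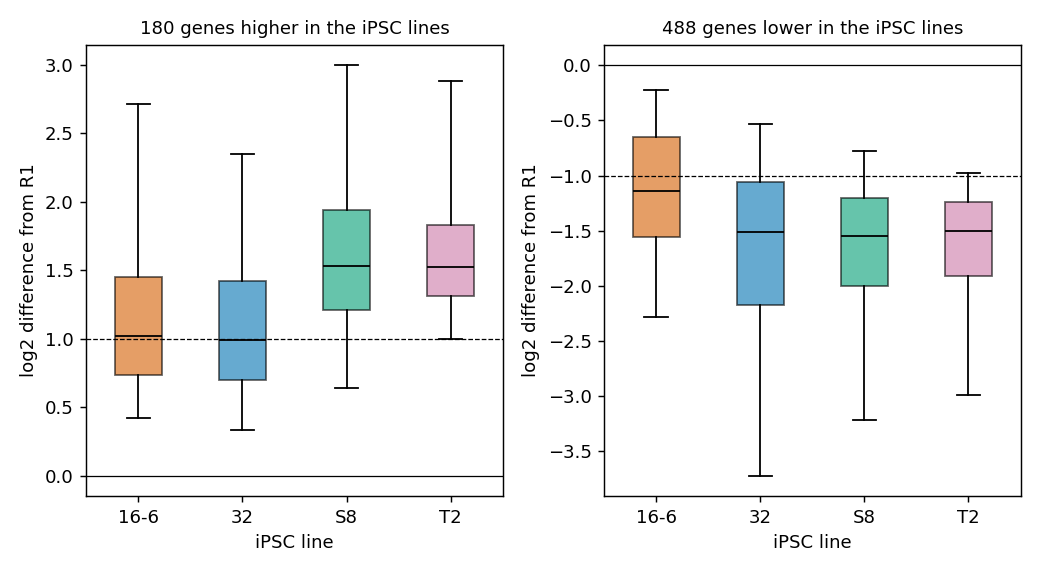
log2 difference of each iPSC line from R1 for the 180 genes that rose (left) and the 488 that fell (right), with boxes from the first to the third quartile, a line at the median, whiskers from the 5th to the 95th percentile and a dashed line at a 2-fold difference. The medians are 1.02 in 16-6, 0.99 in 32, 1.53 in S8 and 1.53 in T2 on the left, and -1.14, -1.51, -1.55 and -1.5 in the same order on the right.

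At the limits of the rule, Mtap6 and Sema3e rose with gaps of 0.0026 and 0.029 on the log2 scale between the nearest libraries of the groups, and Egfr and Mmp2 fell with gaps of 0.0025 and 0.0092. Just outside it, Arl4c had 9.31 in a library of 32 against 9.32 in R1, and Prr7 missed by 0.0067. Nr2f2 and Acbd7 passed the test as lower and missed by 0.0028 and 0.0013. The genes that fell had fewer implied fragments than those that rose, with a median of 222 against 525 in the deepest library of each gene. Of the 488, 16 never reached 20. A low gene such as Ccl4, with at most 13 implied fragments, is known with little precision.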

How the data were processed

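Poly(A) RNA of R1 and the iPSC lines was sequenced as paired reads. According to the methods and processing notes, the authors ran TopHat 2.0.4 against the UCSC gene set of mouse build mm9, used only reads with a single alignment, and estimated expression with Cufflinks (2.0.0 in the notes). They deposited FPKM with confidence limits for each library separately. Counts were not used here. The tables were joined on gene name, start site and locus. FPKM was divided by 12725.7, a constant that brings the sums of the libraries near to those of TPM, and log2(FPKM + 1) was taken. All entries with an FPKM of at least 1 in 1 library were fitted with limma 3.58.1 (R 4.3.3), with 5 line means and a trended prior. Loci under 200 bases were left out of the counts. P-values were adjusted by Benjamini-Hochberg. A gene was called at an adjusted p below 0.05 and a log2 difference of at least 1. A second fit took the line means as samples. Fragments were derived from the confidence limits as the square of 2 times FPKM over its upper half-width, and these limits cover counting error only. The fit was tested on simulated data.

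Named were the 12 largest differences and the 8 most abundant genes in each direction, members of the lists, neighbouring runs, pluripotency factors and genes at the limit of the rule. Some of these genes are not reported here. Members and lists were chosen with earlier results of these data known, and 5 lists were written after values were seen. Alternatives changed the pseudocount, the filters, the scaling, the model and the libraries.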

Additional observations from a re-analysis of the deposited data

Results flagged for a closer look

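Among the genes with the largest differences or the highest levels, 36 in all, 2 had an iPSC library set apart from the other 5. The ratio of the gap to the range was set against Dixon's 95% critical value, which chance passes in about 1 of 20 groups. For Krt8 the library of S8 was the lowest, with a ratio of 0.84. For Lcn2 the first library of 16-6 was the highest, with a ratio of 0.63, among values that were all close to 0.

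Lines 16-6 and 32 differed in size of their difference from R1, by the contrast of 16-6 with 32 in limma. On the log2 scale, 16-6 was above 32 by 2.13 for Acta1, 1.58 for Cnn1, 2.47 for Myl9, 3.62 for Acta2 and 2.31 for Tagln among the genes that rose. Among the genes that fell, 16-6 was above 32 by 3.36 for Cxcl1, 4.29 for Dcn, 5.45 for Mmp3, 2.89 for Lum, 2.10 for Lyz2 and 5.71 for Ccl2. The same contrast gave 1.37 for Areg, 3.24 for Cxcl5, 3.97 for Ereg, 1.99 for Spp1 and 2.91 for H19. Fibroblast markers were also higher in 16-6 than in 32, and their part in these differences was not tested.

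Of 271 entries with a locus under 200 bases, mostly small RNAs that poly(A) libraries do not measure well, 5 were higher and 9 were lower in the iPSC lines by the same rule. They were left out of all counts of the report.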

How the results depend on the processing

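Counts are given as higher and lower in the iPSC lines, first for genes at least 2-fold different and on one side of R1 (180 and 488). A pseudocount of 0.1 gave 324 and 882, quantile normalization 286 higher, an FPKM of at least 5 309 lower, no minimum difference 1908 and 2241, all iPSC libraries as 1 group 70 and 243, a gap of at least 0.5 112 higher, and leaving out 16-6 (chosen after seeing the data) 851 lower. Without regard to the side of R1 (201 and 609), a pseudocount of 0.1 gave 394 and 1199, quantile normalization 306 higher, no minimum difference 4035 and 4791, and 1 iPSC group 70 and 243. Entries on one side of R1 (1936 and 2292) numbered 162 and 468 with a gap of at least 0.5, 1439 lower at an FPKM of at least 5, and 2927 and 3587 without 16-6.

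With each line as 1 value (1 and 18), the counts were 0 and 0 with a pseudocount of 0.1, 2 and 72 without a filter, 0 and 3 with an FPKM of at least 1 in 2 libraries, 0 and 0 at an FPKM of at least 5, and 4 and 42 without a minimum length. They were 6 lower with short loci left out before the fit, 7 lower without trend, 0 and 0 without S8 and T2, and 0 and 36 without 16-6. By unadjusted p below 0.05, 233 and 451 genes passed in limma with a pseudocount of 0.1, 156 and 227 at an FPKM of at least 5, and 111 and 319 without S8 and T2. Why these counts moved was not tested.

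Leaving out 1 library at a time gave 140 to 228 higher and 452 to 513 lower genes that were called and on one side, 161 to 242 and 551 to 622 called, and 2034 to 2656 and 2368 to 2741 on one side. Line means gave 0 to 1 higher and 0 to 22 lower genes, with 0 lower without T2, 1 without S8, 4 without the second and 10 without the first R1 library. Where S8 or T2 was left out, that line dropped from the fit, and a lone R1 library was taken to vary like the other lines.

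With the replicate block, on R1, 16-6 and 32 alone, 142 genes were called higher and 517 lower, and 0 and 0 with line means, as in the fit of the same libraries without pairing (143 and 518). The numbers did not pair the libraries, since the replicate differences of the lines correlated at -0.097, 0.001 and 0.028. Over the named genes and all alternatives run, 3699 values kept their call, 244 lost it, 5 gained it and none reversed. The deposited files give no counts, so that depth was inferred from confidence limits, and low genes are the least precise.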
